A study of Danio rerio with 8 samples.

Results

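Insulin-like growth factor binding proteins (IGFBPs) were examined in cells of zebrafish larvae that were sorted by an sp7-GFP reporter. The members were the 9 genes whose symbol in the deposited count table was igfbp1a, igfbp2a, igfbp2b, igfbp3, igfbp5a, igfbp5b, igfbp6a, igfbp6b or igfbp7, out of 32520 gene rows. These members were chosen by name and not by their values, but with earlier results of these data known. All larvae were 4 days post fertilization (4 dpf), of the AB strain, and were the fluorescent offspring of a wild type fish and a heterozygous Tg(sp7:sp7-GFP) fish, in which the GFP cDNA sits in the endogenous sp7 gene, so both populations came from sp7-GFP carriers. Larvae were pooled and dissociated, and living cells were sorted by GFP into P1, with weak fluorescence, and P2, with strong fluorescence. The labels call both populations osteoblasts, whereas the paper considers P1 osteoblast-like and possibly a precursor of P2. P1 was sequenced in 5 libraries, labelled replicates 1, 2, 3, 5 and 6, and P2 in 3, labelled replicates 1, 2 and 4. According to the paper, these were the libraries that remained after a selection for high quality. The labels do not say whether each library came from a separate pool of larvae, so p-values measure the spread between these libraries, which may be partly technical.

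IGFs are secreted peptide hormones that drive growth of the skeleton, among other tissues, through a receptor tyrosine kinase. IGFBPs are secreted proteins that bind IGFs, carry them, and keep them from the receptor or hand them over to it, and proteases that cut IGFBPs set the IGF free again. In mammals osteoblasts make IGFs together with several IGFBPs and store them in the bone matrix. Many zebrafish IGFBP genes exist as a and b copies that date back to the genome duplication of teleost fish.

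The libraries held between 7510312 and 13034333 reads on genes. Values are normalized read counts, in which the count of a gene was divided by 1 size factor for its library; they are not divided by gene length, so levels are compared between libraries and not between genes. The markers of osteoblasts were present in both populations, but their summed level was 315 to 1324 in P1 and 45860 to 65338 in P2, and 9 of the 10 markers rose in P2. The summed level of chondrocyte markers overlapped, with 11802 to 19496 in P1 and 11123 to 21714 in P2. Of the 8, 2 rose in P2 (col11a2 and sox9a, adjusted p = 0.00188 and 0.0488, limma) and none was called lower. The 6 that were not called all had negative log2 fold changes, from -1.73 (matn1) to -0.51 (col9a1a). P2 replicate 2 stood apart from the other P2 libraries, with muscle markers at 21654 against 192 and 207, and keratinocyte markers at 1310 against 221 and 235. P1 libraries varied in the same markers. Muscle markers were at 17801 and 25202 in P1 replicates 1 and 6 and at 1257 to 2237 in replicates 2, 3 and 5. Keratinocyte markers were at 14046 in P1 replicate 2 and at 946 to 2232 in the rest. Values without P2 replicate 2 are given beside the results that it moved most. Its removal also raised the calls over all genes, to 3992 of 18106 tested, against 2700 of 18475 with all 8 libraries (limma).

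P2 was compared with P1 to ask which IGFBP genes differ between weakly and strongly sp7-GFP positive cells. igfbp3 rose 3.86-fold in P2 and igfbp2a fell, its mean being 7.52-fold higher in P1. igfbp1a and igfbp5b had at least 169 reads in every library and did not pass the test. igfbp2b, igfbp5a and igfbp7 were low in both populations and did not pass either, and igfbp6a and igfbp6b were too low to be tested. The test was limma on log2(normalized read count + 1), with p-values adjusted over all 18475 genes that had at least 10 reads in at least 3 libraries, and calls were made at 0.05. A gene with few reads in P2 could pass this filter through P1 alone. A gene with few reads in P1 needed all 3 P2 libraries, so the filter does not treat both directions alike. igfbp2a passed it through P1, with 92 to 240 reads per library, against 1, 59 and 0 in P2 replicates 1, 2 and 4. Of the 7 members that passed the filter on low counts, 2 were called (1 higher and 1 lower in P2), where 14.6% of all tested genes were called, 7.57% higher and 7.05% lower. The libraries of the populations did not overlap for the same 2 members, against 20.6% of all tested genes. Counts this small are not read as a departure of the family from other genes. The median log2 fold change of the 7 members was 0.25, beside 0.00 over all genes tested. The sorted cells were measured in bulk, so fewer cells that express a gene and less RNA per cell cannot be told apart.

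**Figure D1:**
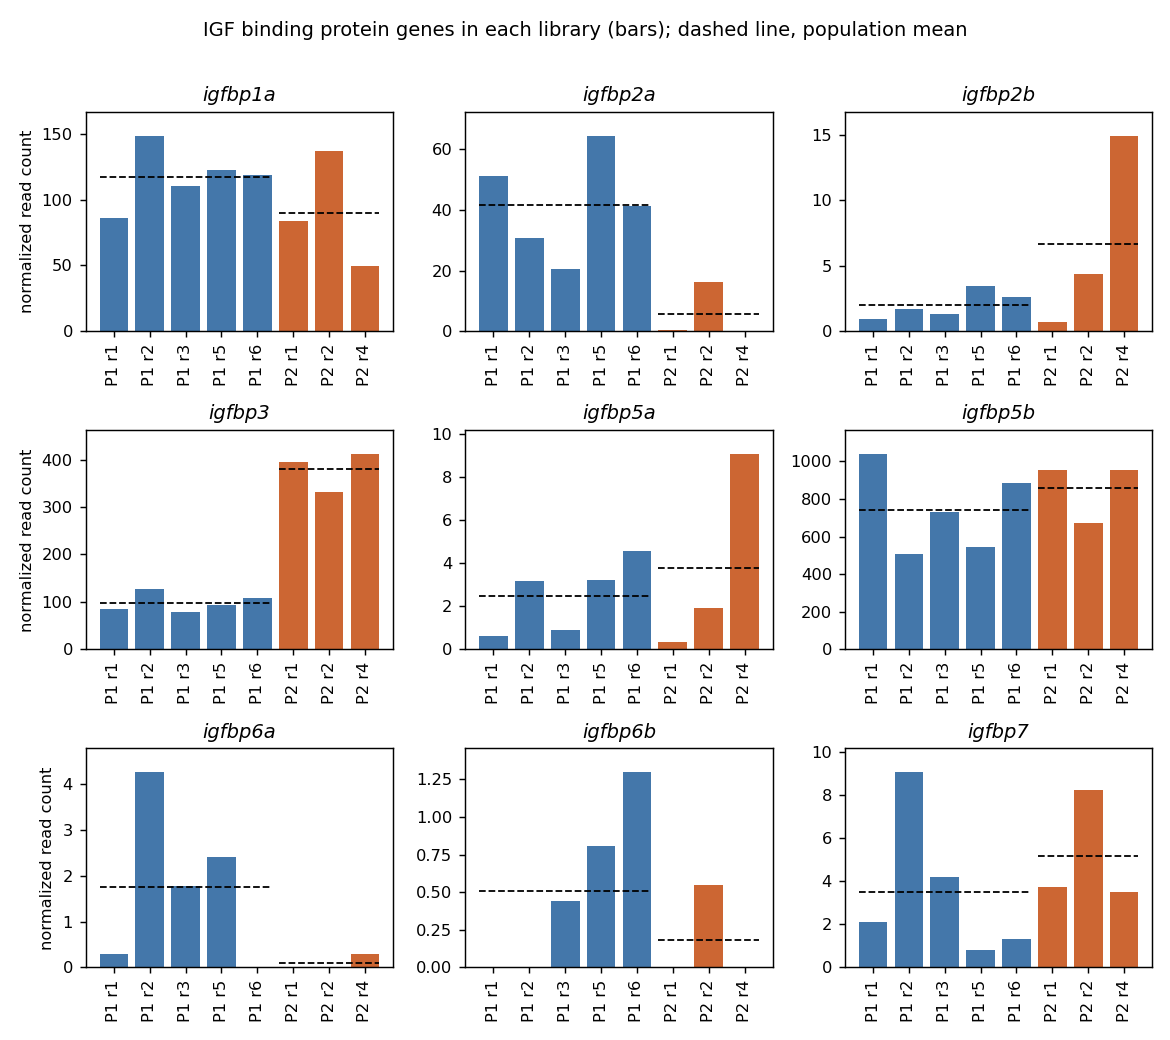
Normalized read count (vertical axis, a scale of its own in each panel, from 0) of the 9 IGF binding protein genes in each of the 5 P1 (blue) and 3 P2 (orange) libraries, with dashed lines at the population means. The bars of igfbp3 are higher in every P2 library (331 to 412) than in any P1 library (79.7 to 126), those of igfbp2a are lower in every P2 library, and those of the other genes overlap.

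igfbp3 (ENSDARG00000099144) encodes the binding protein that in mammalian serum carries most of the circulating IGF. In P1 it had 84.3, 126, 79.7, 93.4 and 109 normalized read counts in replicates 1, 2, 3, 5 and 6. In P2 it had 396, 331 and 412 in replicates 1, 2 and 4. All 3 P2 libraries thus lay far above all 5 P1 libraries, and the lowest of them was P2 replicate 2. P2 averaged 380 ± 42.6 (SD, n = 3) and P1 averaged 98.5 ± 19.1 (SD, n = 5). The difference was larger than the spread between replicates, the log2 fold change being 1.95 (SE 0.27, 95% interval 1.37 to 2.53, adjusted p = 0.000769, limma). It rested on 2003 reads in P1 and 3778 reads in P2. Leaving out P2 replicate 2 gave 2.05 (adjusted p = 0.000944, limma), and over the fits that left out 1 library each the value stayed between 1.88 and 2.05. When the libraries were scaled anew, by the median of ratios among these 8 alone, the median log2 fold change of all genes moved to -0.13 and igfbp3 was at 1.81, and 39.6% of called genes were then higher in P2, against 51.8% with the deposited size factors. The osteoblast markers and 2 of the 8 chondrocyte markers moved the same way as igfbp3. The other 6 chondrocyte markers had negative log2 fold changes that were not called. The part of either cell type in the difference of igfbp3 was not tested.

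igfbp1a (ENSDARG00000099351) lies next to igfbp3 in the zebrafish RefSeq annotation. Its protein is known from zebrafish embryos as an inhibitor of growth that hypoxia induces. It stood at 86.1, 148, 110.0, 122 and 119 in P1 replicates 1, 2, 3, 5 and 6. In P2 it stood at 83.8, 137 and 49.5 in replicates 1, 2 and 4. The populations overlapped, with P2 replicate 2 above all P1 libraries but 1 and P2 replicate 4 below every P1 library. The means were 117 ± 22.5 (SD, n = 5) and 90.1 ± 44.2 (SD, n = 3), and the difference of -0.47 on the log2 scale (SE 0.34, 95% interval -1.21 to 0.27) missed the threshold (adjusted p = 0.368, limma). Without P2 replicate 2 it was -0.83 and without P2 replicate 4 it was -0.10, with adjusted p of 0.0873 and 0.879 (limma), so single P2 libraries set its size.

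The ratio of igfbp3 to its neighbour igfbp1a within a library does not depend on the scaling between libraries. This pair was chosen after the values were seen, and its ratio is a description without a test. It was 0.979, 0.851, 0.724, 0.765 and 0.915 in P1 replicates 1, 2, 3, 5 and 6, and 4.72, 2.42 and 8.33 in P2 replicates 1, 2 and 4. The ratio was therefore below 1 in each P1 library and above 2 in each P2 library, with P2 replicate 2 nearest to P1.

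igfbp2a (ENSDARG00000052470) encodes a copy of the binding protein that in zebrafish larvae is made in liver, among other tissues, and that holds back growth when overproduced. In P1 it had 51.1, 30.8, 20.4, 64.4 and 41.3 normalized read counts in replicates 1, 2, 3, 5 and 6. In P2 it had 0.339 in replicate 1, from 1 read, 16.2 in replicate 2, from 59 reads, and 0 in replicate 4, where a count of 0 allows up to 0.878. Every P2 library was below every P1 library, but P2 replicate 2 came close to the lowest P1 library, and nearly all reads of igfbp2a in P2 came from it. The means were 41.6 ± 17.2 (SD, n = 5) and 5.53 ± 9.28 (SD, n = 3). The log2 fold change was -3.80 (SE 0.79, 95% interval -5.50 to -2.10, adjusted p = 0.00867, limma).

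The fall of igfbp2a was less firm than the rise of igfbp3. It was -5.10 without P2 replicate 2 (adjusted p = 0.000109, limma), whereas without P2 replicate 1 or 4 it was -3.25 and -3.04 and no longer passed (adjusted p = 0.0602 and 0.0504, limma). It also missed the threshold in the count models on recovered reads, with -3.01 and adjusted p = 0.0943 in edgeR and -3.06 and adjusted p = 0.0964 in DESeq2. Every tested marker of the other cell types below had a negative log2 fold change, but most were not called. Over all tested genes 7.05% were called lower. The summed ranges of the populations overlapped for each of these cell types except endothelial cells. Hepatocyte markers summed to 17.0 to 1624 in P1 and 9.95 to 60.0 in P2, with 1 of 9 tested markers lower and none higher. In P1 replicates 1, 2, 3, 5 and 6 the hepatocyte sum was 205, 1624, 17.0, 121 and 1261. Endothelial markers (496 to 759 in P1, 151 to 329 in P2, 5 of 8 lower), macrophage markers (138 to 242 and 14.9 to 161, 2 of 4 lower), neuron markers (150 to 841 and 28.2 to 230, 2 of 6 lower) and keratinocyte markers (946 to 14046 and 221 to 1310, 2 of 5 lower) were also lower in part. Muscle markers did not pass in any of 8 rows, with 1257 to 25202 in P1 and 192 to 21654 in P2. Each marker in these lists had a read in at least 1 P2 library, and the part of these cell types in the fall of igfbp2a was not tested.

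igfbp2b (ENSDARG00000031422), the other copy of igfbp2, was low. It had 0.906, 1.67, 1.33, 3.49 and 2.60 normalized read counts in P1 replicates 1, 2, 3, 5 and 6. In P2 it had 0.679, 4.40 and 14.9 in replicates 1, 2 and 4. The lowest and the highest values both came from P2, and P2 replicate 4 with 51 reads held most of the 69 reads in P2. The change of 0.88 on the log2 scale (SE 0.68, 95% interval -0.59 to 2.35) missed the threshold (adjusted p = 0.400, limma).

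The copies of igfbp2 were set against each other within each library, as log2((igfbp2a + 1)/(igfbp2b + 1)). The ratio was 4.77, 3.57, 3.20, 3.87 and 3.55 in P1 replicates 1, 2, 3, 5 and 6, and -0.33, 1.67 and -3.99 in P2 replicates 1, 2 and 4. It was lower in all 3 P2 libraries than in any P1 library, with means of 3.79 ± 0.60 (SD, n = 5) and -0.88 ± 2.87 (SD, n = 3). The difference of -4.67 is the log2 fold change of igfbp2a minus that of igfbp2b, so it is not a result separate from them. It had p = 0.0179 in a two-sided exact permutation test, the smallest p that the 56 divisions of the libraries allow. After adjustment over the 3 pairs of copies it was 0.0536 and did not pass 0.05. The ratios rest on few reads in part. In P2 replicate 1 igfbp2a had 1 read and igfbp2b 2, and in P1 igfbp2b had 3 to 13 reads per library.

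**Figure D2:**
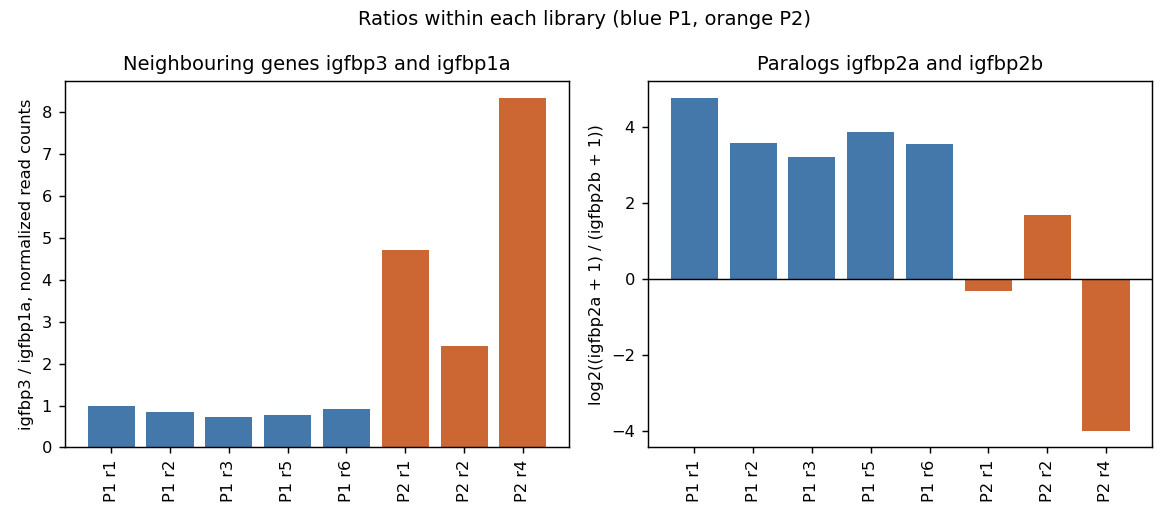
Left, ratio of the normalized read counts of igfbp3 and igfbp1a in each library (axis from 0). Right, log2((igfbp2a + 1)/(igfbp2b + 1)) of the normalized read counts in each library, with a line at 0; P1 is blue and P2 orange. The left ratio lies between 0.724 and 0.979 in P1 and between 2.42 and 8.33 in P2, and the right one is above 3 in every P1 library and below 2 in every P2 library.

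igfbp5b (ENSDARG00000025348) is a copy of igfbp5, whose mammalian protein binds to bone matrix and is made by osteoblasts. It had 1040.0, 505, 730.0, 544 and 887 normalized read counts in P1 replicates 1, 2, 3, 5 and 6. In P2 it had 954, 671 and 954 in replicates 1, 2 and 4. All 3 P2 libraries lay within the range of P1. The means were 741 ± 227 (SD, n = 5) and 860 ± 163 (SD, n = 3), and the change of 0.25 on the log2 scale (SE 0.32) was within that spread (adjusted p = 0.625, limma). Its 95% interval ran from -0.44 to 0.94.

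igfbp5a (ENSDARG00000039264), the other copy, is known in zebrafish larvae from the ionocytes of the skin. It had few reads, 49 in P1 and 39 in P2. The P1 values were 0.604, 3.15, 0.885, 3.22 and 4.55 in replicates 1, 2, 3, 5 and 6, and the P2 values 0.339, 1.93 and 9.07 in replicates 1, 2 and 4. P2 held both the lowest and the highest library, and the change was 0.13 on the log2 scale (SE 0.70, 95% interval -1.39 to 1.64, adjusted p = 0.919, limma). Its sign was negative in 4 of 16 alternatives, so no direction is given. The within-library log2 ratio of igfbp5a to igfbp5b averaged -7.84 ± 1.07 for P1 (SD, n = 5) and -7.96 ± 1.46 for P2 (SD, n = 3; difference -0.12, two-sided exact permutation p = 0.875, adjusted 0.875).

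The copies of igfbp6, which in mammals prefers IGF2 over IGF1, did not reach the filter on low counts. igfbp6a (ENSDARG00000070941) had 0.302, 4.26, 1.77, 2.42 and 0 normalized read counts in P1 replicates 1, 2, 3, 5 and 6. In P2 it had 0, 0 and 0.293 in replicates 1, 2 and 4. It thus had 41 reads in P1, of which 23 in replicate 2, and 1 read in P2. igfbp6b (ENSDARG00000090833) had 9 reads in P1 and 2 in P2, with no library above 1.30. The log2 ratio of the copies averaged 0.69 ± 1.29 (SD, n = 5) and -0.09 ± 0.51 (SD, n = 3), a difference that did not pass (-0.77, two-sided exact permutation p = 0.393, adjusted 0.589). Both copies were at or under 3 reads in 4 of the 8 libraries, so a difference was hardly detectable at this depth.

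igfbp7 (ENSDARG00000104138) encodes a secreted protein related to IGFBPs that binds IGFs only weakly. It had 2.12, 9.08, 4.21, 0.805 and 1.30 in P1 replicates 1, 2, 3, 5 and 6, and 3.73, 8.26 and 3.51 in P2 replicates 1, 2 and 4. The P2 libraries lay inside the P1 range, both replicates numbered 2 were highest in their population, and the change of 0.66 on the log2 scale (SE 0.62, 95% interval -0.68 to 2.01) missed the threshold (adjusted p = 0.494, limma).

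In the RefSeq annotation 6 of the 9 members lie in neighbouring pairs, igfbp3 with igfbp1a, igfbp2a with igfbp5a, and igfbp2b with igfbp5b. In 2 of these pairs a gene that was called neighboured one that was not. The same neighbourhood thus held igfbp3, with 380 in P2 and 98.5 in P1, and igfbp1a, with 90.1 and 117. The other pair held igfbp2a, with 5.53 in P2 and 41.6 in P1, and igfbp5a, with 3.78 and 2.48. With 88 reads in all libraries together and a 95% interval of -1.39 to 1.64, igfbp5a could hardly show a difference. Whether this pair differs in direction is therefore not decided.

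Outside the family, the genes whose log2 levels followed igfbp3 closely over the 8 libraries included usp42, a deubiquitinase (Pearson's r = 0.990), and ecpas, a proteasome adaptor (0.987). For igfbp2a the closest were plcg2, a phospholipase C (0.993), zgc:110540 (0.990) and slc7a11, a subunit of the cystine and glutamate exchanger (0.987). Their means in P1 and P2 were 14.3 and 8.24 (plcg2), 92.4 and 55.2 (zgc:110540), and 34.1 and 6.12 (slc7a11). The part of P2 replicate 2 in these r values was not tested. These genes were picked among all tested genes for their high r, which is a description. The points share the difference between the populations, which sets part of any such likeness.

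The ligands that IGFBPs bind were examined next. Of 6 IGF and insulin genes, 3 were tested, of which 1 was called lower and none higher. Among all tested genes 14.6% were called, 7.57% higher and 7.05% lower. Counts called in this list and those below are not read as a departure from other genes. igf2a, a copy of IGF2, had 144, 122, 99.2, 102 and 81.9 normalized read counts in P1 and 38.7, 92.5 and 19.0 in P2 replicates 1, 2 and 4. P2 replicate 2 lay within the range of P1, and the others lay below it. The log2 fold change was -1.37 (SE 0.43, adjusted p = 0.0494, limma), and it no longer passed in 13 of 19 alternatives, among them the removal of any library other than P2 replicate 2 (-1.47 to -0.83, adjusted p = 0.0630 to 0.216). Without P2 replicate 2 it was -1.95 (adjusted p = 0.00384, limma).

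igf2b, the other copy, had 1365, 1078, 845, 534 and 784 in P1 and 1735, 1171 and 2324 in P2 replicates 1, 2 and 4. P2 replicate 2 again lay within the P1 range, with the others above it. The change of 0.93 on the log2 scale (SE 0.36) missed the threshold (adjusted p = 0.0965, limma), and passed it without P2 replicate 2, at 1.19 (adjusted p = 0.0452, limma). Without P2 replicate 4 it was 0.70 (adjusted p = 0.300, limma). igf1, the ligand that growth hormone induces in liver, had 12.5 ± 4.81 for P1 (SD, n = 5) and 9.99 ± 3.17 for P2 (SD, n = 3) and missed the threshold (log2 fold change -0.23, adjusted p = 0.771, limma). igf3, a gonadal ligand of fish, had 0 reads in all 8 libraries, and the insulin genes ins and insb did not exceed 2.42 and 2.68 in any library.

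Receptors were called higher in 2 of 5 cases and lower in none, where 14.6% of all tested genes were called. igf1rb, a copy of the IGF1 receptor, had 179, 170.1, 165, 188 and 192 in P1 and 460, 264 and 462 in P2 replicates 1, 2 and 4. All P2 libraries were above all P1 libraries, with P2 replicate 2 lowest. The log2 fold change was 1.09 (SE 0.27, adjusted p = 0.0215, limma). igf1ra, the other copy, had 20.8, 38.9, 25.9, 15.3 and 32.5 in P1 and 132, 37.7 and 210 in P2, so P2 replicate 2 lay within the range of P1. Its log2 fold change was 1.96 (SE 0.50, adjusted p = 0.0239, limma), and without P2 replicate 2 it was 2.67 (adjusted p = 0.00140), where igf1rb was 1.36 (0.00457). Both calls were lost without P2 replicate 1 (igf1rb adjusted p = 0.103, igf1ra 0.107) and without P2 replicate 4 (0.0921 and 0.123). That of igf1rb was also lost without P1 replicate 3 (0.0537) and that of igf1ra without P1 replicate 5 (0.0550), all by limma. Each call was lost in 6 of 19 alternatives, among them voom weights (adjusted p = 0.0569 for igf1rb and 0.0554 for igf1ra).

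The insulin receptor copies insra and insrb and the IGF2 receptor igf2r, which in mammals takes up IGF2 for breakdown, did not pass. Their values on the log2 fold change scale were 0.77 (SE 0.31, adjusted p = 0.107), 1.56 (SE 0.53, adjusted p = 0.0673) and 1.00 (SE 0.42, adjusted p = 0.127), by limma. Without P2 replicate 2 insra passed at 0.99 (adjusted p = 0.0426) and insrb at 2.34 (0.00269), and insrb also passed in edgeR (0.0433) and DESeq2 (0.00918). Without P2 replicate 4 insra was 0.48 (adjusted p = 0.371, limma) and insrb 0.92 (0.292).

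Of 8 genes for IGFBP proteases, their inhibitors and the third subunit of the circulating IGF complex, 7 were tested. Of these 2 rose and none fell, where 14.6% of all tested genes were called. stc2a encodes a stanniocalcin, whose human relative blocks the IGFBP protease PAPP-A. It had 28.7, 55.8, 107, 60.7 and 48.4 in P1 and 332, 417 and 501 in P2 replicates 1, 2 and 4. All P2 libraries were at least 3 times as high as the highest P1 library, and the rise of 2.88 on the log2 scale (SE 0.38, adjusted p = 0.000562, limma) passed in all 19 alternatives. htra1a encodes a copy of the serine protease HTRA1, whose human form cuts IGFBP5. It had 106, 69.5, 109, 94.0 and 99.5 in P1 and 331, 219 and 316 in P2, with no overlap, and rose by 1.58 on the log2 scale (SE 0.28, adjusted p = 0.00356, limma). pappaa, pappab and pappa2, which encode proteases of the PAPP-A kind, had 0.78, 1.07 and 0.05 with adjusted p of 0.376, 0.121 and 0.938 (limma). Without P2 replicate 2, pappaa (1.54, adjusted p = 0.0417), pappab (1.45, 0.0416) and htra1b (1.09, 0.0496) passed by limma. Without P2 replicate 4, pappaa was 0.11 (adjusted p = 0.928), pappab 0.47 (0.484) and htra1b 0.72 (0.269), by limma.

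**Figure D3:**
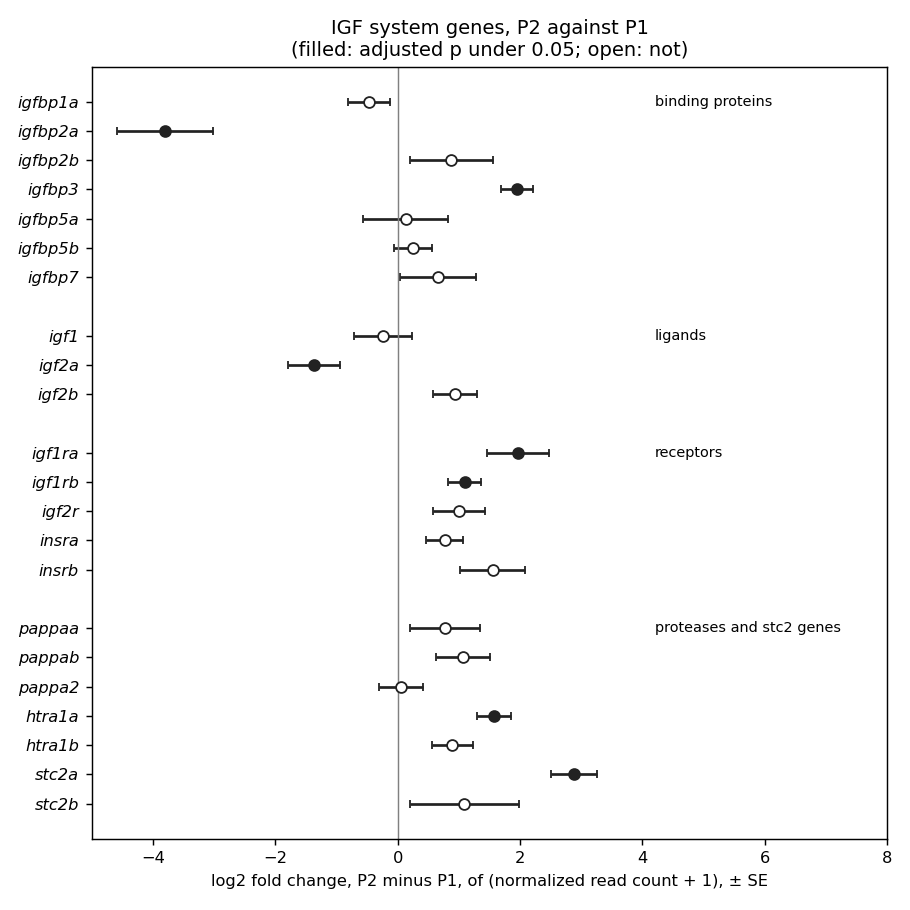
Log2 fold change of (normalized read count + 1), P2 minus P1, with its standard error as horizontal bars, for the tested IGF binding proteins, ligands, receptors, and proteases with the stc2 genes. Filled points passed an adjusted p of 0.05 (limma). To the right lie igfbp3 (1.95), igf1ra (1.96), igf1rb (1.09), htra1a (1.58) and stc2a (2.88), and to the left igfbp2a (-3.80) and igf2a (-1.37).

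In the cascade below the receptor, 25 of 26 listed genes had a row and were tested, of which 3 rose, 1 fell and 21 did not pass. This is near the 14.6% called among all tested genes. grb10b, an adaptor that in mammals restrains the receptors, averaged 198 ± 68.0 for P1 (SD, n = 5) and 525 ± 162 for P2 (SD, n = 3; log2 fold change 1.43, adjusted p = 0.0223). akt1, a kinase of the pathway, had 1.26 ± 0.76 (SD, n = 5) and 12.0 ± 8.25 (SD, n = 3) (2.40, adjusted p = 0.0198, limma). It was low in P1 (0 to 2.04), had 146 reads in all libraries together, and passed the filter on low counts only through P2. pdpk1b, which encodes a kinase that activates AKT, had 36.2 ± 24.9 (SD, n = 5) and 98.0 ± 31.5 (SD, n = 3) (1.62, adjusted p = 0.0451), and pik3cb, a catalytic subunit of PI3 kinase, had 60.0 ± 20.9 (SD, n = 5) and 22.9 ± 15.2 (SD, n = 3) (-1.49, adjusted p = 0.0400), all by limma. None of these 4 calls held without P2 replicate 1 (adjusted p = 0.0787 to 0.178) or without P2 replicate 4 (0.0996 to 0.173). pik3cb and pdpk1b were also lost without P1 replicate 1, 3, 5 or 6 (0.0562 to 0.0846), and grb10b without P1 replicate 3 (0.0512). With voom weights grb10b (adjusted p = 0.0527) and akt1 (0.0660) were lost too. Over all settings pdpk1b lost its call in 14 of 19 alternatives, among them scaling by TMM and by the median of ratios (0.0623 and 0.0620), edgeR (0.111) and DESeq2 (0.0703), and pik3cb in 11 of 19, among them edgeR (0.0601) and voom (0.0567). Without P2 replicate 2 the values were 1.72 for grb10b, 2.92 for akt1, 1.76 for pdpk1b and -1.97 for pik3cb (adjusted p = 0.00739 to 0.0460, limma), and pik3ca, akt2, ptena and mtor passed as well, all higher in P2 (adjusted p = 0.00776 to 0.0411, limma). In other fits that left out 1 library, the adjusted p reached 0.205 for pik3ca, 0.407 for akt2, 0.213 for ptena and 0.285 for mtor (limma).

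Other proteins share an IGFBP-type domain. Of 18 listed, 13 were tested, of which 4 rose, 2 fell and 7 did not pass, where 14.6% of all tested genes were called. ccn4b, of the matricellular CCN family, had 1.99 to 7.48 in P1 and 250 to 736 in P2 (log2 fold change 6.10, SE 0.46, adjusted p = 6.64e-06, limma). ccn2b had 155 to 452 and 735 to 965 (1.54, adjusted p = 0.0133), kazald3 26.9 to 52.3 and 68.5 to 113 (1.21, adjusted p = 0.0326), and htra3a 0.604 to 5.20 and 13.8 to 29.3 (2.39, adjusted p = 0.0131). kazald2 fell, with 18.9 to 32.5 in P1 and 0, 0 and 1.17 in P2 (-4.31, SE 0.46, adjusted p = 0.000111, limma), and so did ccn1l2, with 5.44 to 175 and 0 to 0.826 (-4.47, SE 0.85, adjusted p = 0.00554), though not with voom weights (-6.28, adjusted p = 0.159). Both kazald2 and ccn1l2 passed the filter on low counts through P1 alone. Without P2 replicate 4 the calls of ccn2b (0.0557) and htra3a (0.0637) were lost, and that of htra3a also without P2 replicate 1 (0.0553). That of kazald3 was lost in 6 of the 8 fits without 1 library (0.0529 to 0.103), all except those without P1 replicate 2 or 3. Over all settings kazald3 lost its call in 12 of 19 alternatives. Among them were scaling by the median of ratios (adjusted p = 0.0511) and by TMM (0.0529), edgeR (0.0585) and voom weights (0.0715). The gene crim1 passed without P2 replicate 2 (1.81, adjusted p = 0.0131) or P1 replicate 2 (1.56, 0.0308). In other fits that left out 1 library its adjusted p reached 0.203 (limma). The gene esm1 passed in 6 of 19 alternatives, among them without P1 replicate 3 (-1.91, adjusted p = 0.0322), edgeR (0.0466) and DESeq2 (0.00489). igfbp1b, the copy of igfbp1a, was not among the 9 members and had too few reads to be tested, at most 7.80 in any library.

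The IGF2 mRNA-binding proteins are named alike but bind RNA and not IGFs. Of the 4 genes, igf2bp2a rose from 18.0 ± 3.05 (SD, n = 5) to 68.1 ± 27.5 (SD, n = 3), that is by 1.79 on the log2 scale (SE 0.37, adjusted p = 0.00788, limma), and 3 did not pass. The share called over all tested genes was 14.6%, with 7.57% higher. The igf2bp2a call was lost in 2 of 19 alternatives, both of them fits to replicates 1 and 2 alone. igf2bp2b passed without P2 replicate 2 (1.54, adjusted p = 0.0257, limma). In other fits that left out 1 library its adjusted p reached 0.304 (limma).

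**Figure D4:**
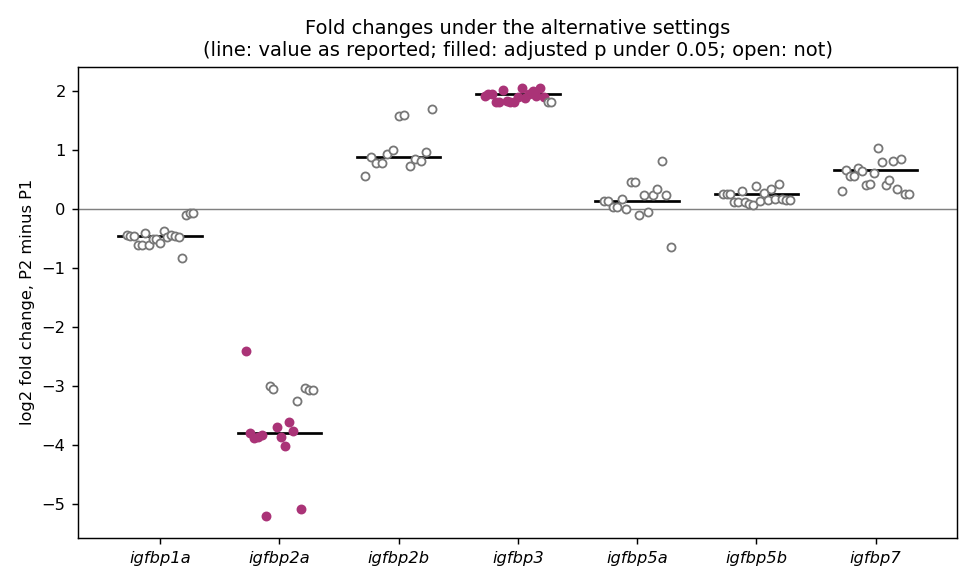
Log2 fold change, P2 minus P1, of the 7 tested IGF binding proteins under up to 19 alternative settings (points, in the order in which they were run; filled where the adjusted p was under 0.05) with a line at the value reported above. igfbp3 stays between 1.80 and 2.05 and igfbp2a between -5.22 and -2.41, with 6 open points for igfbp2a and 2 for igfbp3, and the points of igfbp5a fall on both sides of 0.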

How the data were processed

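The authors mapped the reads to GRCz11 (Ensembl release 103 genes) with nf-core rnaseq 3.0, parameters at default; how reads on overlapping genes or close copies were assigned is not given in the sources used here, so values of a and b copies are uncertain to that degree. The deposited values are a normalized read signal, gene counts that the authors divided by 1 DESeq2 size factor per library. Multiplication by that factor gave whole reads for 100% of values (within 0.01 read), between 7510312 and 13034333 per library. The SMART-Seq cDNA was amplified by PCR without molecular identifiers, so floors (3 reads) cover counting error only. Of 4 deposited files 1 was used. Of the others, 1 repeats these libraries beside 10 columns that match no sample, and the rest hold the authors' own comparisons (log2 fold changes and p-values), which were not used.

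log2(normalized read count + 1) was fitted with limma 3.58.1 (R 4.3.3), with population as the only term and a variance trend, over genes with at least 10 reads in at least 3 libraries, and adjusted by Benjamini-Hochberg. The added 1 shrinks changes of low genes on this scale. A mean of logarithms also differs from a ratio of means: igfbp2a was 13.9-fold lower in P2 by the former and 7.52-fold by the latter. The count models gave it log2 fold changes of -3.01 (edgeR) and -3.06 (DESeq2). Ratios between a and b copies were compared by two-sided exact permutation. Alternatives were a pseudocount of 5, other filters and scalings, voom, edgeR 4.0.16 and DESeq2 1.42.0 on recovered reads, each library left out, and a replicate block. The statistical scripts were tested on simulated data. Replicates were not copies of each other (chi-square per degree of freedom at least 43.7).

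The members, gene lists and tests were chosen with earlier results of these data known. Named genes were all 9 members, every ligand and receptor, list genes with an adjusted p under 0.05, and the 3 genes most correlated with each called member, of which 1 is not reported here; col11a2, sox9a, pappaa, pappab, pappa2, htra1b, pik3ca, akt2, ptena, mtor, crim1, esm1, igfbp1b and igf2bp2b were named after their values were seen. Neighbours came from RefSeq GRCz12tu, another build than the files', so no coordinates or sequences are given. All 9 symbols matched that table.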

Additional observations from a re-analysis of the deposited data

Results flagged for a closer look

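Among the 38 sets of 5 P1 libraries checked for a library far from the rest, over members and listed genes, 3 had such a library, where chance gives about 1 in 20. All were P1 replicate 5. The insulin gene ins had 2.42 normalized read counts there and 0 in the other P1 libraries, the protease gene pappaa had 11.5 against 30.8 to 36.5, and ccn1l2 had 175 against 5.44 to 47.4. None of the 9 IGF binding proteins was among them.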

How the results depend on the processing

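Over the 7 tested members, 114 of 122 alternative values stayed on the same side of the threshold with the same direction of any call, 8 lost a call (6 of 18 for igfbp2a, 2 of 19 for igfbp3) and none gained one. Most of the 122 belong to the 5 members without a call to lose, so the total says little about how firm the calls were. Members called were 2 with the deposited factors, 1 with at least 10 reads in every library (where igfbp2a was not tested), 1 in edgeR, 1 in DESeq2, and 1 to 2 with 1 library left out. Genes called were 2700, against 1741 (73.8% higher in P2) with at least 10 reads in every library, 1292 with voom weights, and 876 (without P2 replicate 1) to 3992 (without P2 replicate 2) with 1 library left out; they were 1115 without P2 replicate 4, 1457 without P1 replicate 5 and 1682 without P1 replicate 3. DESeq2 called 3685 (42.0% higher), edgeR 1982, and TMM scaling 2471 (39.9% higher). Replicates 1 and 2 exist in both populations. Their titles also share a code, which may mark sorts of the same larvae, but this is not given in the sources used here. Their deviations correlated at 0.00 and -0.13 over genes, where libraries with different numbers ranged from -0.26 to 0.21. These correlations cannot tell whether the libraries were paired. Replicates 1 and 2 were not treated as pairs in the values reported. With the replicate block in these 4 libraries 359 genes and 0 members were called, against 149 and 0 in the same 4 libraries without it, and igfbp3 was 1.80 (adjusted p = 0.116 and 0.158, limma) and igfbp2a -3.08 (0.0601 and 0.229). The igfbp2a to igfbp2b ratio difference was -2.96 with a pseudocount of 5, -3.50 within replicates 1 and 2, and -5.95 to -3.12 with 1 library left out. That of igfbp5a to igfbp5b ran from -0.82 to 0.64 with 1 library left out, and that of igfbp6a to igfbp6b from -1.25 to -0.35. Depth limited igfbp6a, igfbp6b, igfbp5a and igfbp2b, which had at most 108 reads in all libraries together.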
